A study of Mus musculus with 18 samples.

Results

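Notch receptors, their ligands and their direct target genes were followed in mouse kidney RNA after unilateral ischemia and reperfusion (UIR) and after a sham operation. The 10 genes were chosen by name, with earlier results of these data known. They are the receptors Notch1, Notch2 and Notch3, the ligands Jag1, Jag2, Dll1 and Dll4, and the targets Hes1, Hey1 and Heyl. Their Entrez Gene IDs are 18128 (Notch1), 18129 (Notch2), 18131 (Notch3), 16449 (Jag1), 16450 (Jag2), 13388 (Dll1), 54485 (Dll4), 15205 (Hes1), 15213 (Hey1) and 56198 (Heyl). All 10 had 1 row each among the 20825 genes of the deposited table, and all 10 passed the filter on low values. In UIR mice the vessels of the right kidney were clamped for 45 minutes and blood flow was then restored, with the left kidney left intact. Sham mice had surgery without this injury. Both groups were C57BL/6 mice labelled as 11 weeks old, examined 1, 3 or 21 days after surgery, with 3 biological replicates in each of the 6 groups and 18 libraries in all. The labels name neither the sex of the mice nor the kidney that was sequenced, and no genotype or drug besides the surgery.

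Levels are FPKM, which divides the fragments of a gene by its length and by the size of the library, so that levels of different genes can be set beside each other. Folds are differences of log2(FPKM + 1), given ± SE, from limma fitted to all 18 libraries, and a gene is called at an adjusted p (Benjamini-Hochberg over 14716 genes) under 0.05. On this scale the changes of genes with low FPKM are understated, and for the strongest contrasts the ratio of mean FPKM is given as well. The FPKM sum of a library ran from 424207 to 549490, and between 12000 and 14156 genes reached 1 FPKM. The proximal tubule marker Slc34a1 ran from 21.4 to 1137 FPKM in UIR libraries, against 953 to 1105 FPKM in the sham libraries of day 1 and 2677 to 3252 FPKM in those of days 3 and 21. The thick limb marker Umod was at 316 FPKM or more in every library, with means of 1110, 561 and 390 FPKM in UIR libraries at days 1, 3 and 21. At day 1 Slc12a1 had a mean of 18.4 FPKM in UIR and 43.1 FPKM in sham libraries. Of the 3 thick limb and distal tubule markers Umod, Slc12a1 and Slc12a3, 1, 2 and 2 were called lower at days 1, 3 and 21. The shares of all genes called lower were 31.1%, 17.9% and 20.1%. In whole tissue, fewer cells of a type and less RNA per cell cannot be told apart, and this holds for every level below. UIR minus sham, the median difference of all genes tested was -0.03, 0.44 and 0.53 at days 1, 3 and 21, and the changes of single genes are to be read against it.

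Notch signalling passes between cells that touch. A ligand of the Jagged or Delta-like family on one cell binds a Notch receptor on its neighbour, and after cleavage by an ADAM protease and then by gamma-secretase the receptor's intracellular part moves to the nucleus. There it joins the DNA-binding protein Rbpj and a Mastermind-like coactivator and switches on genes of the Hes and Hey families, which encode transcriptional repressors. In the kidney the pathway is known for its part in forming nephron segments, and Jag1 and Notch family members have been studied in tubule cells and in fibrosis of the adult organ. Notch3 is best known from vascular smooth muscle cells and pericytes, and Dll4 and Hey1 from endothelial cells.

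All 3 receptors rose at days 3 and 21, and Notch1 and Notch2 also at day 1. Notch2, a receptor with wide expression in tissues, had 9.02, 10.75 and 7.96 FPKM in UIR libraries at day 1, against 7.15, 7.40 and 6.51 FPKM in sham libraries. At day 3 it had 16.65, 16.43 and 16.51 FPKM in UIR and 4.32, 4.54 and 3.76 FPKM in sham libraries, and at day 21 it had 16.51, 19.20 and 19.44 FPKM in UIR and 4.94, 5.45 and 4.73 FPKM in sham libraries. UIR libraries lay above all sham libraries of the same day each time, by a little at day 1 and by a wide gap afterwards. The differences of log2 values were 0.35 ± 0.10 at day 1 (adjusted p = 0.0075), 1.75 ± 0.10 at day 3 (adjusted p = 3.1e-10) and 1.68 ± 0.10 at day 21 (adjusted p = 3.1e-10). Mean FPKM of UIR over sham libraries came to 1.32, 3.93 and 3.65 at days 1, 3 and 21.

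Notch1, a receptor well studied in vessels and in blood cell precursors, had 4.90, 6.68 and 6.46 FPKM in UIR libraries at day 1, against 4.08, 4.08 and 3.99 FPKM in sham libraries. The values at day 3 were 9.75, 8.15 and 7.64 FPKM in UIR and 2.06, 2.62 and 1.91 FPKM in sham libraries. By day 21 they were 16.61, 18.70 and 19.88 FPKM in UIR and 2.08, 3.54 and 2.70 FPKM in sham libraries. The groups did not overlap at any day, and the UIR level at day 21 was the highest of the 3 days while the sham level was highest at day 1. Notch1 rose by 0.46 ± 0.14 at day 1 (adjusted p = 0.0098), 1.57 ± 0.14 at day 3 (adjusted p = 5.1e-08) and 2.38 ± 0.14 at day 21 (adjusted p = 2.9e-10). The ratio of mean FPKM was 1.48, 3.88 and 6.63.

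Notch3 differed from the other receptors at day 1. It had 2.40, 1.94 and 3.50 FPKM in UIR libraries, against 3.19, 3.58 and 3.01 FPKM in sham libraries, and the groups overlapped (difference -0.26 ± 0.17, adjusted p = 0.20). Without the UIR day-1 library of replicate 3, which held the highest of these UIR values, the difference was -0.43 with an adjusted p of 0.037. At day 3 it had 7.97, 5.52 and 4.44 FPKM in UIR and 2.02, 1.82 and 1.73 FPKM in sham libraries, and at day 21 it had 9.68, 11.38 and 12.81 FPKM in UIR and 1.80, 2.05 and 1.72 FPKM in sham libraries. All UIR libraries of these days lay above all sham libraries, with the widest spread among the UIR libraries of day 3. Notch3 rose by 1.26 ± 0.17 at day 3 (adjusted p = 4.8e-06) and 2.10 ± 0.17 at day 21 (adjusted p = 9.0e-09), with ratios of mean FPKM of 3.22 and 6.08.

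The ligands behaved less alike. Jag1, a ligand of the Jagged family, had 5.80, 7.87 and 7.45 FPKM in UIR libraries at day 1, against 3.31, 3.83 and 3.78 FPKM in sham libraries. It had 15.77, 15.11 and 14.75 FPKM in UIR and 3.81, 4.55 and 3.64 FPKM in sham libraries at day 3, and 17.49, 18.56 and 16.94 FPKM in UIR and 3.54, 3.63 and 3.23 FPKM in sham libraries at day 21. The groups did not overlap at any day, and the sham values of all 3 days stayed within a narrow range. Jag1 rose by 0.79 ± 0.10 at day 1 (adjusted p = 6.3e-06), 1.70 ± 0.10 at day 3 (adjusted p = 4.4e-10) and 2.06 ± 0.10 at day 21 (adjusted p = 4.0e-11), which at day 1 was the largest difference among the 10 genes. The ratio of mean FPKM was 1.93, 3.80 and 5.10.

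Jag2, the other Jagged ligand, was the only one of the 10 genes called lower at day 1. It had 0.80, 0.92 and 1.02 FPKM in UIR libraries, against 1.75, 1.70 and 1.58 FPKM in sham libraries, so the UIR libraries lay below all sham libraries (difference -0.49 ± 0.13, adjusted p = 0.0034). At day 3 the order had turned, with 2.30, 2.17 and 1.89 FPKM in UIR and 0.81, 1.32 and 0.74 FPKM in sham libraries. At day 21 Jag2 had 4.03, 3.97 and 5.16 FPKM in UIR and 0.83, 1.37 and 0.99 FPKM in sham libraries. The UIR libraries of both later days lay above all sham libraries. Jag2 rose by 0.68 ± 0.13 at day 3 (adjusted p = 1.3e-04) and by 1.39 ± 0.13 at day 21 (adjusted p = 3.9e-08), with ratios of mean FPKM of 2.22 and 4.13. The call at day 3 was lost when all libraries were given the same distribution of values by quantile normalization (0.07, adjusted p = 0.65).

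At days 3 and 21 the Delta-like ligands had smaller differences than the Jagged ligands. Dll4, a Delta-like ligand known from endothelial tip cells, had 3.96, 4.74 and 3.64 FPKM in UIR libraries at day 1, against 3.59, 2.71 and 2.40 FPKM in sham libraries. It had 3.65, 3.56 and 2.95 FPKM in UIR and 2.25, 2.55 and 2.46 FPKM in sham libraries at day 3, and 6.25, 6.94 and 5.89 FPKM in UIR and 2.39, 4.27 and 3.13 FPKM in sham libraries at day 21. The groups did not overlap, though at day 1 the lowest UIR and the highest sham value nearly met. Dll4 rose by 0.40 ± 0.15 at day 1 (adjusted p = 0.029), 0.36 ± 0.15 at day 3 (adjusted p = 0.038) and 0.81 ± 0.15 at day 21 (adjusted p = 9.3e-05), of which the value at day 3 was below the median of all genes. The day-1 call was lost without the UIR library of replicate 2 (0.31, adjusted p = 0.12) or the sham library of replicate 2 (0.37, adjusted p = 0.079) or replicate 3 (0.30, adjusted p = 0.13). The day-3 call was lost without UIR replicate 1 (0.31, adjusted p = 0.11) or 2 (0.33, adjusted p = 0.097) and without sham replicate 1 (0.32, adjusted p = 0.10), 2 (0.38, adjusted p = 0.052) or 3 (0.37, adjusted p = 0.065), and the difference at day 3 was -0.04 under median-of-ratios scaling. The day-21 call was lost under median-of-ratios scaling (0.32, adjusted p = 0.054) and quantile normalization (-0.04, adjusted p = 0.81).

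Dll1, the Delta-like ligand known from many developing tissues, was not called at any day in the fit of all libraries. It had 4.41, 5.01 and 2.49 FPKM in UIR and 3.29, 2.63 and 2.81 FPKM in sham libraries at day 1, and 3.49, 3.48 and 2.15 FPKM in UIR and 2.56, 3.26 and 2.51 FPKM in sham libraries at day 3. In both sets replicate 3 of UIR lay below every sham library and the other UIR libraries lay above them. At day 21 it had 3.80, 4.38 and 3.92 FPKM in UIR and 2.89, 3.09 and 2.89 FPKM in sham libraries, which did not overlap. The differences were 0.31 ± 0.17 (adjusted p = 0.14), 0.08 ± 0.17 (adjusted p = 0.67) and 0.35 ± 0.17 (adjusted p = 0.078) at days 1, 3 and 21. Without the UIR library of replicate 3 the day-1 difference was 0.55 and was called (adjusted p = 0.0042), and under quantile normalization Dll1 was called lower at day 3 (-0.58) and at day 21 (-0.56). At day 21 it was called higher as TPM (0.56, adjusted p = 0.017) and in a fit of the compared groups only (0.35, adjusted p = 0.0062).

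**Figure D1:**
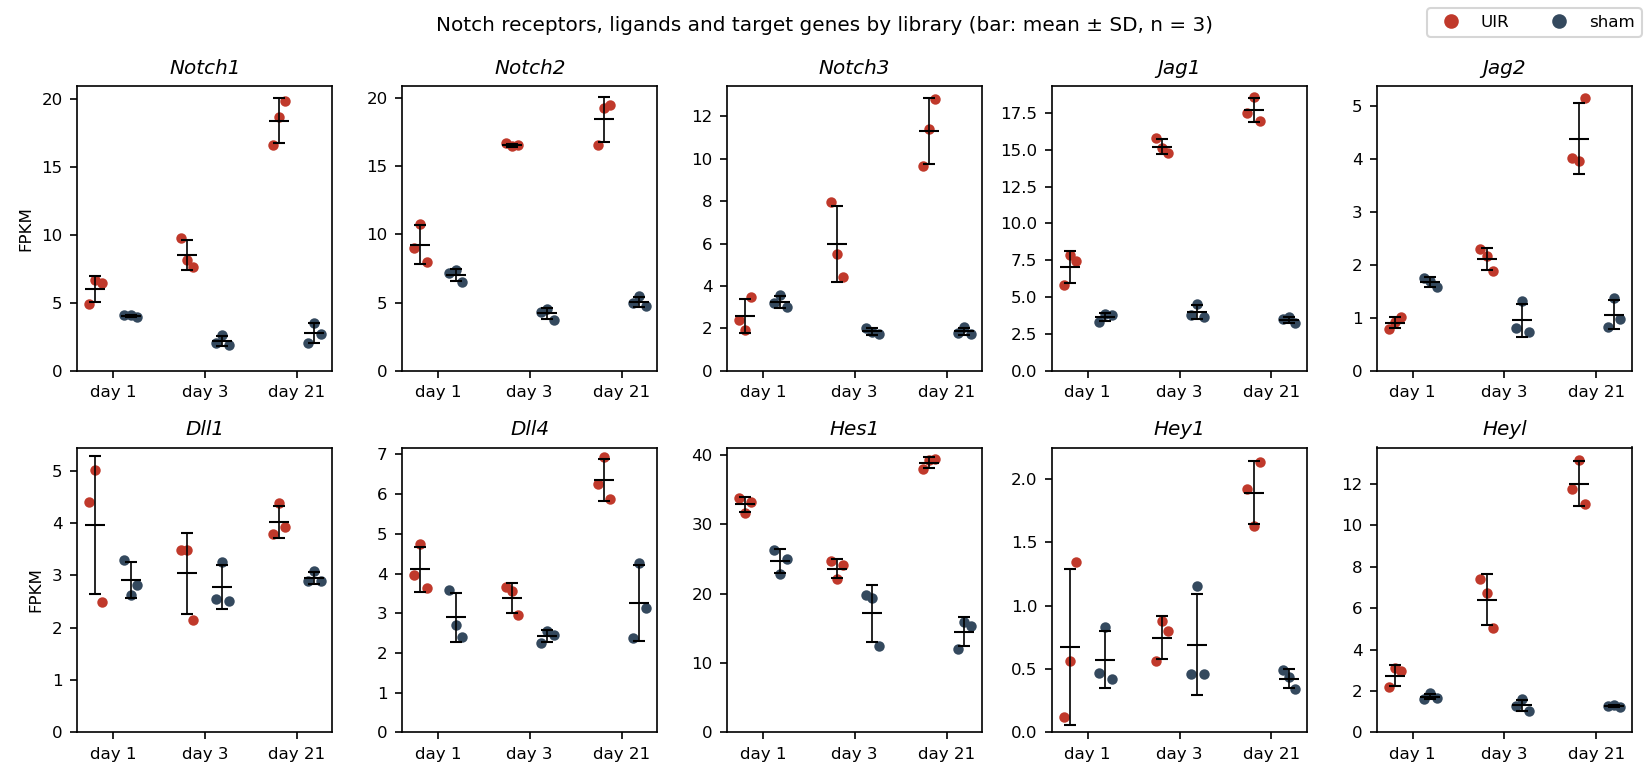
FPKM of each of the 10 genes (vertical axes, one panel per gene) in every library at days 1, 3 and 21, with UIR libraries in red to the left of sham libraries in dark blue. Notch1 in UIR libraries reaches 16.61 to 19.88 FPKM at day 21 and stays between 1.91 and 4.08 FPKM in sham libraries, while Dll1 lies between 2.15 and 5.01 FPKM in all libraries.

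Notch1, Notch2, Notch3 and Jag1 were called higher at days 3 and 21 under every scaling tried, though Notch3 was not called at day 1. The 250 bases before the annotated start of each are shown because they are the receptors and the ligand that held these calls. The sequences are RefSeq's on GRCm38.p6, written 5′ to 3′ on the strand of the gene, with CG dinucleotides in capitals. Their positions are chr2:26503823-26504072 on the minus strand for Notch1, chr3:98013288-98013537 on the plus strand for Notch2, chr17:32166891-32167140 on the minus strand for Notch3 and chr2:137116521-137116770 on the minus strand for Jag1.
Notch1: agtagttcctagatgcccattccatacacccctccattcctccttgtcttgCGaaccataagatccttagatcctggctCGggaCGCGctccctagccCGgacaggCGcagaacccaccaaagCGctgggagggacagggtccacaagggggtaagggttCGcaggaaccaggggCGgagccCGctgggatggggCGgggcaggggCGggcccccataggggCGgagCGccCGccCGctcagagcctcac
Notch2: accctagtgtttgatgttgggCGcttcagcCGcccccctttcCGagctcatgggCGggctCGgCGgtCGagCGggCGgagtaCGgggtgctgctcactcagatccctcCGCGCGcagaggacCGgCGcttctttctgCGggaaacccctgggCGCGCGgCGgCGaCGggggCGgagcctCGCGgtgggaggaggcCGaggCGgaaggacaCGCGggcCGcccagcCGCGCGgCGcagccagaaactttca
Notch3: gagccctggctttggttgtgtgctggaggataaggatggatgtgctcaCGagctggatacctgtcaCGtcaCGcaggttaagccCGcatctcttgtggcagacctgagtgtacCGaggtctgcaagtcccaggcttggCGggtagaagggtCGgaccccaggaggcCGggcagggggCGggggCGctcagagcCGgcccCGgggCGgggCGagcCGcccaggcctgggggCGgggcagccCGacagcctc
Jag1: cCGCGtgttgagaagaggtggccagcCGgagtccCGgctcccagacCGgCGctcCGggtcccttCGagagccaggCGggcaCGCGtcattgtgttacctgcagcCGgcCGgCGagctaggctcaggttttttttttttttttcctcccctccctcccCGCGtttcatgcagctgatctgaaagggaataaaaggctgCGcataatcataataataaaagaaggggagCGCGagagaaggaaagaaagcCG

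These 4 stretches held 16, 34, 17 and 20 CG dinucleotides for Notch1, Notch2, Notch3 and Jag1, and the median over 32851 mouse promoter stretches of the same length was 6 (quartiles 2 and 16). GC content was 66.0%, 72.0%, 68.8% and 57.2% in the same order, against a median of 52.4%. Of the 10 genes 7 were matched in the promoter table, and Hes1, Hey1 and Heyl were not. Windows from 250 bases before to 50 bases after the start were searched on both strands for TGGGAA, the core letters bound by Rbpj, and for CACGTG, an E-box. Neither was in a window of the 7 genes, which says only that these letters are not there. Of all windows 25.6% held TGGGAA and 7.15% held CACGTG. Among the ligands the upstream stretch of Jag2 had 54 CG dinucleotides and that of Dll4 had 14, and the stretches before the 2 starts of Dll1 had 21 and 13.

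The target genes split into a large late change for Heyl, a smaller one for Hes1 and a change of Hey1 at day 21. Heyl, a Hey family repressor, had 2.18, 3.09 and 2.95 FPKM in UIR libraries at day 1, against 1.63, 1.88 and 1.67 FPKM in sham libraries. It had 7.41, 6.73 and 5.03 FPKM in UIR and 1.27, 1.59 and 1.04 FPKM in sham libraries at day 3, and 11.74, 13.14 and 11.00 FPKM in UIR and 1.27, 1.32 and 1.24 FPKM in sham libraries at day 21. No UIR library overlapped a sham library of its day. Heyl rose by 0.45 ± 0.13 at day 1 (adjusted p = 0.0072), 1.68 ± 0.13 at day 3 (adjusted p = 9.1e-09) and 2.51 ± 0.13 at day 21 (adjusted p = 7.1e-11). The ratio of mean FPKM was 1.59, 4.92 and 9.37, and the last was the largest of the 10 genes.

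Hes1, the Hes family repressor most often used as a readout of Notch signalling, had 33.84, 31.70 and 33.29 FPKM in UIR libraries at day 1, against 26.26, 22.83 and 25.03 FPKM in sham libraries. At day 3 it had 24.70, 22.06 and 24.09 FPKM in UIR and 19.86, 19.36 and 12.53 FPKM in sham libraries. At day 21 it had 37.98, 39.32 and 39.42 FPKM in UIR and 12.08, 15.99 and 15.30 FPKM in sham libraries. UIR libraries were above sham libraries at each day, lowest at day 3 and highest at day 21. Hes1 rose by 0.40 ± 0.14 at day 1 (adjusted p = 0.017), 0.46 ± 0.14 at day 3 (adjusted p = 0.006) and 1.38 ± 0.14 at day 21 (adjusted p = 9.7e-08). Without the sham library of replicate 2 the day-1 difference was 0.35 and not called (adjusted p = 0.066), and the day-3 difference, which is close to the median of all genes, was -0.05 under median-of-ratios scaling.

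Hey1, a Hey family repressor known from vessels, was the least abundant target. It had 0.12, 0.56 and 1.34 FPKM in UIR and 0.47, 0.83 and 0.42 FPKM in sham libraries at day 1, and 0.56, 0.88 and 0.80 FPKM in UIR and 0.46, 1.15 and 0.46 FPKM in sham libraries at day 3. The groups overlapped at both days (differences 0.03 ± 0.21 and 0.07 ± 0.21, adjusted p = 0.91 and 0.78). At day 21 it had 1.92, 1.63 and 2.13 FPKM in UIR and 0.49, 0.44 and 0.34 FPKM in sham libraries, with no overlap. Hey1 rose by 1.02 ± 0.21 at day 21 (adjusted p = 3.2e-04), with a ratio of mean FPKM of 4.47, and the call was lost under quantile normalization (0.15, adjusted p = 0.56).

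Counted over the 10 genes, 6 were higher and 1 lower in UIR than in sham libraries at day 1 and 3 were not called, where 28.5% of all genes tested were called higher and 31.1% lower. At day 3 it was 8 higher and 0 lower, against 57.6% of all genes called higher and 17.9% lower. At day 21 it was 9 higher and 0 lower, against 60.7% of all genes called higher and 20.1% lower. With most of all genes called higher at the later days, these counts are to be read beside that background. The UIR libraries all lay above the sham libraries for 6, 8 and 10 of the 10 genes at days 1, 3 and 21, as they did for 29.5%, 59.3% and 62.8% of all genes. The median difference of the 10 genes was 0.37, 0.97 and 1.53 at days 1, 3 and 21, beside -0.03, 0.44 and 0.53 for all genes. Called higher at all 3 days were Notch1, Notch2, Jag1, Dll4, Hes1 and Heyl, 6 of 10, against 20.7% of all genes.

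**Figure D2:**
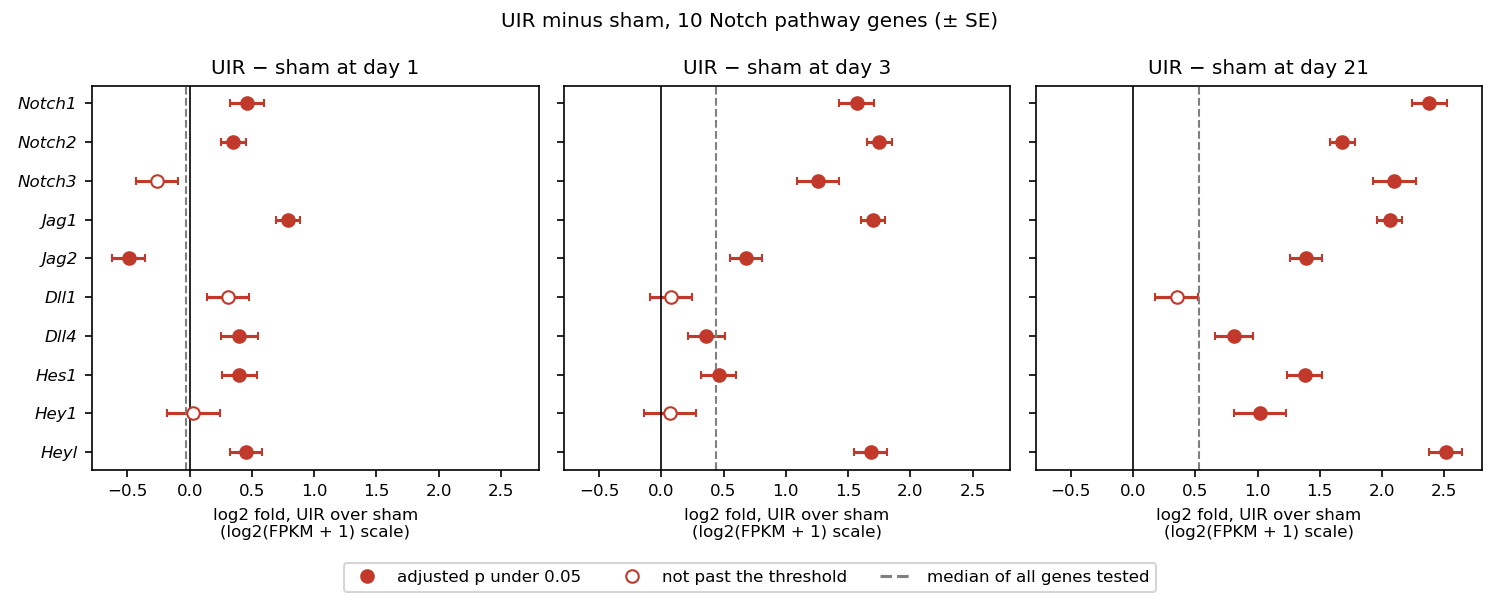
UIR minus sham difference of log2(FPKM + 1) with its SE (horizontal axis) for each of the 10 genes at days 1, 3 and 21. Filled points passed an adjusted p of 0.05, open points did not, and the dashed line is the median of all genes, 0.53 at day 21, where Heyl lies at 2.51 and Dll1 at 0.35.

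UIR libraries of days 3 and 21 had the lowest FPKM sums, 424207 to 438194, and the scaling of the libraries moved the values of these days. The median difference of all genes at days 3 and 21 was 0.03 and 0.05 under median-of-ratios scaling and 0.75 and 0.76 after conversion to TPM. Of the calls over all genes 76.3% were higher at day 3 and 75.2% at day 21 as deposited, 51.2% and 52.3% under median-of-ratios scaling, 51.2% and 49.2% under quantile normalization, and 84.1% and 80.2% as TPM. Notch1, Notch2, Notch3, Jag1 and Heyl were called higher at both days under all of them. Their day-3 differences under median-of-ratios scaling were 1.14, 1.28, 0.85, 1.23 and 1.29. The number of the 10 genes called higher at day 3 was 8 as TPM, 6 under median-of-ratios scaling and 5 under quantile normalization, against 68%, 35.2% and 34.7% of all genes. At day 21 it was 10, 8 and 7 in the same order, against 66.8%, 39.5% and 36.9% of all genes.

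**Figure D3:**
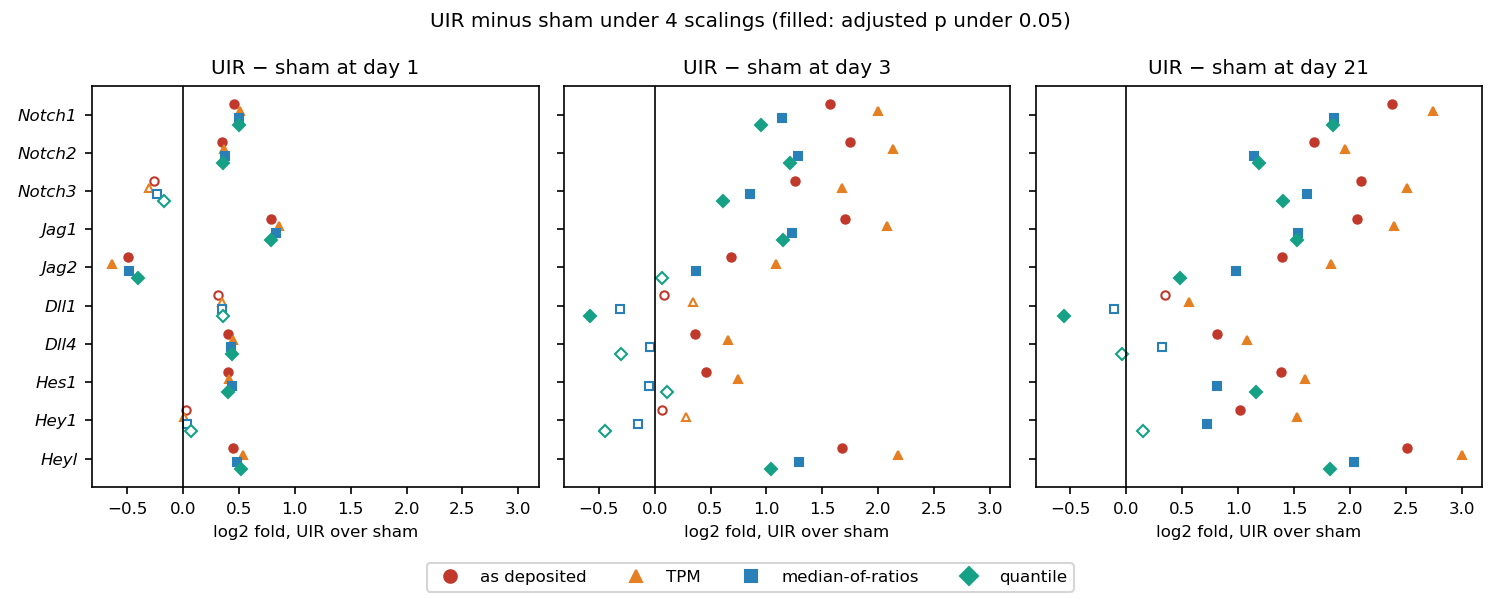
UIR minus sham difference of log2 values (horizontal axis) for the 10 genes at each day under the deposited FPKM, TPM, median-of-ratios scaling and quantile normalization. Notch2 at day 3 lies at 1.75 with deposited FPKM and at 1.28 under median-of-ratios scaling, and Dll4 at day 3 lies at 0.36 and -0.04.

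Whether the difference between UIR and sham grew with time was tested as the later difference minus the earlier one. From day 1 to day 3 it grew for 6 of the 10 genes and shrank for 0, against 50.1% and 12.7% of all genes. These were all 3 receptors, both Jagged ligands and Heyl, and Notch3 had the largest change of the 10, 1.52 ± 0.24 (adjusted p = 5.3e-05). From day 3 to day 21 it grew for 7 and shrank for 0, against 26.1% and 20.2% of all genes, with Notch1, Notch3, Jag1, Jag2, Hes1, Hey1 and Heyl called. Notch2 was the receptor without a call after day 3 (-0.07 ± 0.14, adjusted p = 0.70). Dll1 and Dll4 were not called in either step in the fit of all libraries as deposited. From day 1 to day 3 quantile normalization called both lower (-0.94 and -0.75, adjusted p = 0.0028 and 0.0033). Dll1 was also called lower there under median-of-ratios scaling (-0.66, adjusted p = 0.037) and without UIR day-1 replicate 3 (-0.46, adjusted p = 0.047). From day 3 to day 21 Dll4 was called higher with a pseudocount of 5 (0.29, adjusted p = 0.039) and without sham day-21 replicate 2 (0.62, adjusted p = 0.016). The Jag1 call from day 3 to day 21 (0.36 ± 0.14, adjusted p = 0.048) was lost in 11 of 12 fits that left out 1 library of those days, with adjusted p from 0.054 to 0.12 where it was lost. It was also lost with a pseudocount of 0.1 (adjusted p = 0.056), with no filter (0.056), as TPM (0.14) and under median-of-ratios scaling (0.063). The Jag2 call was lost under quantile normalization (0.41, adjusted p = 0.066). The Hey1 call (0.95 ± 0.30, adjusted p = 0.016) was lost with a pseudocount of 0.1 and under quantile normalization (adjusted p = 0.059 and 0.13).

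Within UIR libraries, 6 of the 10 genes were higher at day 3 than at day 1 (49.4% of all genes) and 1 was lower (17.1% of all genes). Jag1 led with a difference of 1.02 ± 0.10 (adjusted p = 3.1e-07), followed by Heyl at 0.98 ± 0.13 and Notch3 at 0.94 ± 0.17. Hes1 was the gene that was lower at day 3 than at day 1, by -0.46 ± 0.14 (adjusted p = 0.0066). The Notch1 difference of 0.44 ± 0.14 (adjusted p = 0.011) was not called without the UIR day-1 library of replicate 1 (0.32, adjusted p = 0.066) or the UIR day-3 library of replicate 1 (0.35, adjusted p = 0.060), and it was 0.09 under median-of-ratios scaling. Without the UIR day-1 library of replicate 3, Dll1 was called lower at day 3 than at day 1 (-0.52, adjusted p = 0.0054). Dll1 and Dll4 were also called lower under median-of-ratios scaling (-0.58 and -0.53, adjusted p = 0.01 and 0.0049). Quantile normalization called both lower as well (-0.78 and -0.72, adjusted p = 6.1e-04 and 2.0e-04).

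In the later step, 7 of the 10 genes were higher at day 21 than at day 3 in UIR libraries and 0 were lower, against 32.2% and 24% of all genes. Notch1 had the largest difference of the 10 genes, 1.03 ± 0.14 (adjusted p = 1.4e-05), and Heyl, Notch3, Jag2 and Dll4 had 0.82 ± 0.13, 0.84 ± 0.17, 0.78 ± 0.13 and 0.75 ± 0.15. Hes1, lower at day 3 than at day 1, was higher at day 21 than at day 3 by 0.70 ± 0.14 (adjusted p = 3.8e-04). Notch2 and Jag1 had reached most of their level by day 3, and their differences after it were 0.14 ± 0.10 (adjusted p = 0.25) and 0.20 ± 0.10 (adjusted p = 0.098).

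Part of the difference between days lay in the sham libraries. Sham libraries of day 3 were lower than those of day 1 for 5 of the 10 genes and higher for 0, against 29.7% and 12.8% of all genes. The 5 were Notch1 (-0.67 ± 0.14, adjusted p = 0.0013), Notch2 (-0.62 ± 0.10, adjusted p = 1.4e-04), Notch3 (-0.58 ± 0.17, adjusted p = 0.012), Hes1 (-0.52 ± 0.14, adjusted p = 0.0058) and Jag2 (-0.46 ± 0.13, adjusted p = 0.0075). Notch1 and Notch2 kept this call under every scaling tried, Hes1 lost it under median-of-ratios scaling (adjusted p = 0.056), and Notch3 and Jag2 lost it under quantile normalization (adjusted p = 0.11 and 0.091). The injured tubule markers Havcr1, Lcn2, Krt20 and Vcam1 summed to 4.40 to 13.3 FPKM in sham libraries of day 3 and to 128 to 273 FPKM in those of day 1. Their part in the sham values of the 10 genes was not tested.

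Between day 21 and day 3, limma called 0 of the 10 genes in sham libraries and 5 of all genes (0.034%). An unadjusted p under 0.05 was found for 1 of the 10 genes and for 2284 of the 14716 genes tested. Without the sham day-3 library of replicate 3, whose Hes1 value of 12.53 FPKM was the lowest of its group, 419 genes were called. Hes1 was then lower at day 21 than at day 3 (-0.42, adjusted p = 0.041).

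Set against the mean of the sham libraries of days 3 and 21 in place of the day-1 sham libraries, the UIR libraries of day 1 gave larger differences for several genes. Notch1 was higher by 1.02 ± 0.12 (adjusted p = 1.6e-06), Notch2 by 0.86 ± 0.09 (adjusted p = 2.2e-07) and Hes1 by 1.03 ± 0.12 (adjusted p = 8.2e-07), each more than double the difference from the sham libraries of day 1. Jag1 hardly moved, at 0.76 ± 0.09 (adjusted p = 9.2e-07). The lower level of Jag2 at day 1 was no longer there, with a difference of -0.06 ± 0.11 (adjusted p = 0.63). In this comparison 6 of the 10 genes were called higher and 0 lower, against 39.6% and 32% of all genes.

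The order of the 10 genes by level changed less than the levels. Hes1 had the highest mean in all 6 groups, 32.9 ± 1.11, 23.6 ± 1.38 and 38.9 ± 0.804 FPKM in UIR libraries and 24.7 ± 1.74, 17.2 ± 4.10 and 14.5 ± 2.09 FPKM in sham libraries at days 1, 3 and 21 (SD, n = 3 each), and no other gene overlapped it. Notch2 came next at days 1 and 3 in UIR libraries and at all days in sham libraries, where it overlapped Jag1 at day 3. At day 21 in UIR libraries Notch1 (18.4 ± 1.66 FPKM), Notch2 (18.4 ± 1.63 FPKM) and Jag1 (17.7 ± 0.824 FPKM) overlapped and could not be ordered. Heyl moved up in the order: its mean of 12 ± 1.09 FPKM in UIR libraries at day 21 was the fifth of the 10, overlapping Notch3 at 11.3 ± 1.57 FPKM, and its mean of 2.74 ± 0.49 FPKM at day 1 was the seventh. In sham libraries of day 21 Jag1, Dll4, Dll1 and Notch1 overlapped from one to the next, with means of 3.47, 3.26, 2.96 and 2.77 FPKM. Hey1 had the lowest mean in every group, between 0.423 and 1.89 FPKM.

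Likeness of pattern was measured over the 18 libraries as the root mean square difference of log2(FPKM + 1) after each gene was centred on its own mean. Of the 10 genes, Heyl and Notch1 were the closest pair at 0.233, then Heyl and Jag1 at 0.238 and Dll1 and Dll4 at 0.266. For comparison, the spread of Heyl around its own mean was 0.943, that of Dll1 was 0.246 and that of Dll4 was 0.384. Among all genes tested the nearest to Notch2 was Dpy19l1 (0.141), to Notch3 Nfix (0.146), to Jag1 Utrn (0.139) and to Heyl Sh3pxd2a (0.143). The nearest to Jag2 was Hspa12b (0.088), to Dll4 Bmpr2 (0.166), to Hes1 Fgfr1 (0.167), to Hey1 Clec1a (0.171) and to Dll1 Pisd (0.173). These are descriptions over libraries that share 6 groups.

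Of 68 other genes of the pathway, listed by role from general knowledge, 60 passed the filter, and Dll3, Dlk1, Dlk2, Dner, Hes5, Hes7, Dtx1 and Bend6 did not. In UIR against sham libraries 24 were higher and 13 lower at day 1, 45 higher and 5 lower at day 3, and 46 higher and 5 lower at day 21. The shares of all genes called higher and lower were 28.5% and 31.1% at day 1, 57.6% and 17.9% at day 3, and 60.7% and 20.1% at day 21, and the counts of each group of genes below are to be read beside them. Their median differences were 0.09, 0.77 and 0.98, beside -0.03, 0.44 and 0.53 for all genes. Under median-of-ratios scaling it was 30 higher and 15 lower at day 3, against 35.2% and 33.6% of all genes, and 38 higher and 16 lower at day 21, against 39.5% and 36% of all genes. Notch4, the remaining receptor, had 5.26, 5.88 and 6.48 FPKM in UIR libraries at day 21, against 2.27, 3.38 and 2.71 FPKM in sham libraries, and rose by 0.87 ± 0.17 (adjusted p = 1.8e-04). That difference was 0.00 under quantile normalization.

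The enzymes that add sugars to the receptors, some of which affect which ligand a receptor answers to, had median differences of 0.86 at day 3 and 1.16 at day 21. At day 3 and at day 21 5 of 6 were higher and 1 was lower, while at day 1 0 were higher and 2 were lower. Lfng, the Lunatic fringe sugar transferase, had 28.35, 25.49 and 35.88 FPKM in UIR libraries at day 21, against 2.00, 2.43 and 1.97 FPKM in sham libraries. It rose by 2.18 ± 0.20 at day 3 (adjusted p = 7.2e-08) and by 3.29 ± 0.20 at day 21 (adjusted p = 4.0e-10), and did not pass at day 1 (0.10 ± 0.20, adjusted p = 0.71). Mfng, Manic fringe, had a difference of -0.62 ± 0.20 at day 1 (adjusted p = 0.013) and 2.06 ± 0.20 at day 21 (adjusted p = 6.6e-08). Rfng, Radical fringe, fell by 0.75 at day 3 (adjusted p = 1.0e-05) and 0.48 at day 21 (adjusted p = 6.2e-04), so the 3 fringe genes did not move together.

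In the nuclear complex 5 of 8 genes were higher and 1 lower at day 1, 7 higher and 0 lower at day 3, and 7 higher and 1 lower at day 21. Rbpj, the DNA-binding partner of the cleaved receptor, had 28.16, 25.97 and 29.45 FPKM in UIR libraries at day 21, against 7.77, 7.65 and 6.87 FPKM in sham libraries. It rose by 1.21 ± 0.09 at day 3 (adjusted p = 3.5e-09) and 1.78 ± 0.09 at day 21 (adjusted p = 3.7e-11), and by day 1 it had not passed (0.14 ± 0.09, adjusted p = 0.16). The coactivator Maml2 rose by 1.86 ± 0.11 at day 21 (adjusted p = 1.9e-10), while the acetyltransferase Kat2b fell by 0.33 (adjusted p = 0.010). Both calls at day 21 for Rbpj and Maml2 held under every scaling tried. Among 11 corepressors 7 were higher and 2 lower at day 1, 9 higher and 1 lower at day 3, and 9 higher and 0 lower at day 21. Under median-of-ratios scaling it was 4 higher and 2 lower at day 3 and 6 and 3 at day 21. Tle1, a Groucho family corepressor, rose by 1.26 ± 0.12 at day 1 (adjusted p = 2.7e-07), and Tle2 of the same family fell by 0.99 (adjusted p = 5.1e-05). Also at day 1, the histone demethylase Kdm5a rose by 0.82 ± 0.09 (adjusted p = 7.6e-07) and the acetyltransferase Kat2a fell by 0.83 (adjusted p = 9.0e-05). Cir1, which binds Rbpj, fell by 0.58 at day 3 (adjusted p = 0.0015), a call lost as TPM (adjusted p = 0.057), as was that of Kat2b (adjusted p = 0.27).

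Genes of receptor cleavage were called in both directions, with 2 of 10 higher and 2 lower at day 1 and 4 higher and 2 lower at each later day. As TPM it was 8 higher and 1 lower at day 3 and 6 and 2 at day 21, and under median-of-ratios scaling 3 higher and 6 lower at day 3 and 4 and 6 at day 21. Adam10, the protease of the first ligand-induced cut, rose by 0.42 ± 0.11 at day 1 (adjusted p = 0.0039), 1.46 ± 0.11 at day 3 (adjusted p = 7.4e-09) and 1.06 ± 0.11 at day 21 (adjusted p = 2.1e-07). Aph1c, a gamma-secretase subunit, was lower at all 3 days. It had 4.45, 3.87 and 4.32 FPKM in UIR libraries at day 21, against 11.34, 11.63 and 11.89 FPKM in sham libraries, and fell by 1.14, 1.36 and 1.28 at days 1, 3 and 21 (adjusted p = 2.7e-07, 1.3e-08 and 1.7e-08). Aph1c has a close copy, Aph1b, and how reads were divided between them is not known, so both are uncertain as single genes. Furin, which cuts the receptor before it reaches the surface, fell by 0.76 at day 21 (adjusted p = 2.3e-06). Psenen, another gamma-secretase subunit, fell by 0.41 at day 3 (adjusted p = 0.014), a call lost as TPM and under quantile normalization (adjusted p = 0.37 and 0.29).

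Among the ligases that tag ligands for uptake by the sending cell, 1 of 4 was higher and 2 were lower at day 1, and 3 were higher and 0 lower at each later day. Mib2 fell by 1.34 at day 1 (adjusted p = 1.1e-06) and Neurl1a rose by 0.84 ± 0.11 (adjusted p = 1.2e-05). Of 10 genes of receptor turnover and inhibition 4 were higher and 4 lower at day 1, and 8 were higher and 1 lower at each later day. Under median-of-ratios scaling it was 5 higher and 3 lower at day 3 and 7 and 3 at day 21. Numbl, of the Numb family of Notch inhibitors, rose at all 3 days, by 1.06 ± 0.15, 1.88 ± 0.15 and 2.57 ± 0.15 (adjusted p = 1.8e-05, 1.4e-08 and 2.4e-10). Dtx4, a Deltex ubiquitin ligase, fell by 0.75 at day 1 (adjusted p = 0.0030) and rose by 1.83 ± 0.19 at day 3 (adjusted p = 3.0e-07) and 2.68 ± 0.19 at day 21 (adjusted p = 2.2e-09). Nedd4, a ubiquitin ligase, rose by 1.97 ± 0.14 at day 3 (adjusted p = 3.2e-09), and Dtx3l of the Deltex family fell by 0.78 at day 1 (adjusted p = 0.026, and 0.074 under quantile normalization). Hes6, which opposes Hes1 in development, was lower at all 3 days, by -0.43 ± 0.12, -0.89 ± 0.12 and -0.82 ± 0.12 (adjusted p = 0.0072, 7.8e-06 and 1.4e-05).

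Of 10 other genes known as Notch targets in some tissue, 5 were higher at day 1, 8 at day 3 and 9 at day 21, and 0 were lower in the values as deposited. It was 5 higher and 2 lower at day 3 under quantile normalization, and 8 higher and 1 lower at day 21 under median-of-ratios scaling. Sox9, a transcription factor that other pathways also switch on, had 19.48, 25.91 and 28.63 FPKM in UIR libraries at day 1, against 11.88, 3.01 and 10.38 FPKM in sham libraries. It had 27.49, 22.18 and 32.92 FPKM in UIR and 0.44, 0.32 and 0.41 FPKM in sham libraries at day 3, and rose by 4.34 ± 0.31 (adjusted p = 3.4e-09). Its sham values were far higher at day 1 than later. Myc, a growth regulator, had 40.53, 37.05 and 31.99 FPKM in UIR libraries at day 3, against 1.01, 8.42 and 1.72 FPKM in sham libraries. The UIR minus sham difference was 3.33 ± 0.38 (adjusted p = 8.2e-07). Its mean in UIR libraries was 41.2 FPKM at day 1 and 36.5 FPKM at day 3. In sham libraries the mean of Myc fell from 33.6 to 3.72 FPKM over the same days. At day 21 Sox9 rose by 3.29 ± 0.31 (adjusted p = 5.5e-08), Efnb2, an ephrin of arteries, by 2.37 ± 0.16 (adjusted p = 1.4e-09), and Snai1, a repressor active in mesenchymal cells, by 2.27 ± 0.22 (adjusted p = 6.9e-08). Nrarp, a feedback inhibitor that Notch switches on, rose by 0.83 ± 0.15, 0.81 ± 0.15 and 0.63 ± 0.15 at days 1, 3 and 21 (adjusted p = 1.8e-04, 1.2e-04 and 0.0011), and at day 21 was -0.23 under quantile normalization. Hey2, the third Hey gene, rose by 0.56 ± 0.15 at day 1 (adjusted p = 0.0037) and 1.18 ± 0.15 at day 21 (adjusted p = 1.4e-06), and at day 3 the difference was 0.19 ± 0.15 (adjusted p = 0.24), as with Hey1 a day without a call.

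**Figure D4:**
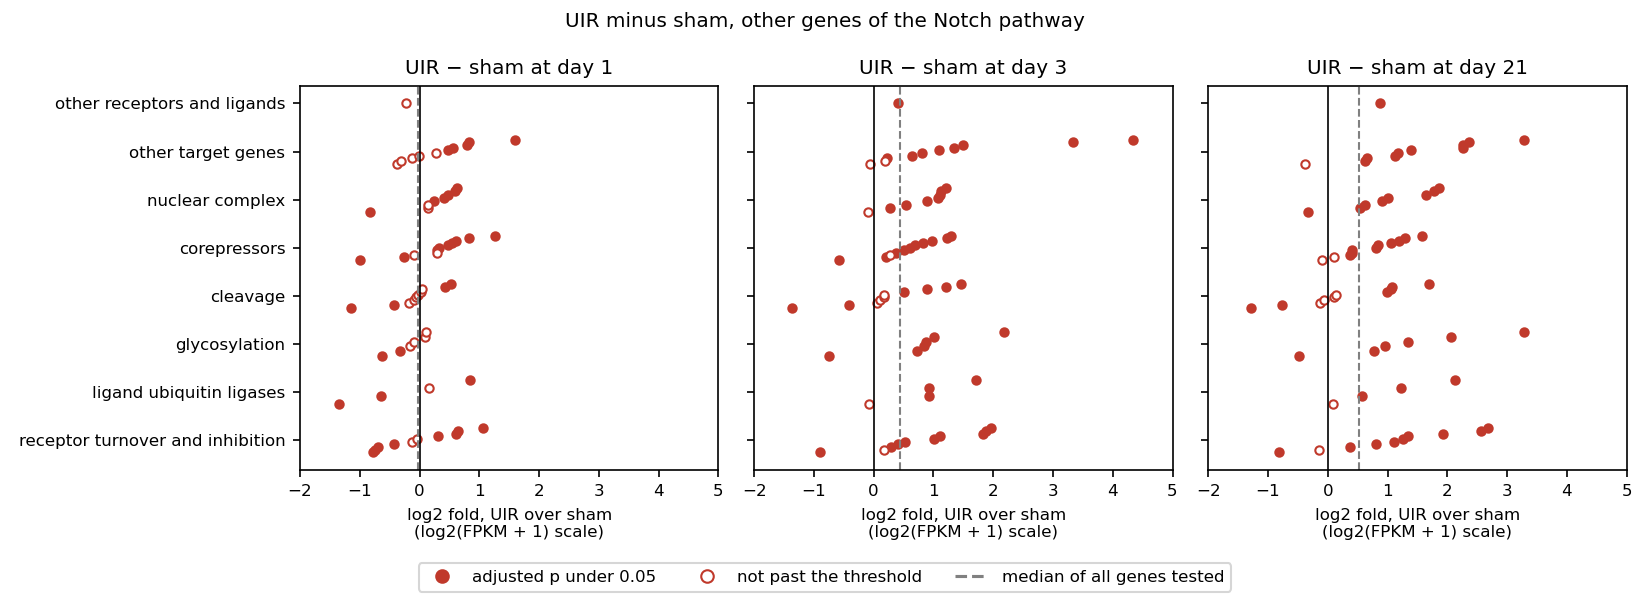
UIR minus sham difference of log2(FPKM + 1) (horizontal axis) for the 60 other pathway genes, grouped by role, at days 1, 3 and 21, 1 point per gene. Filled points passed an adjusted p of 0.05, the dashed line is the median of all genes, and Sox9 at 4.34 on day 3 and Lfng at 3.29 on day 21 are the rightmost points of their groups.

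Several of the 10 genes are known from vessels and their supporting cells, and markers of those and other cells are given for the same days. Their counts are to be read beside the shares of all genes. These were 28.5%, 57.6% and 60.7% called higher at days 1, 3 and 21, and 31.1%, 17.9% and 20.1% called lower. The 8 pericyte and smooth muscle markers summed to 62.4 to 77.8, 140 to 262 and 410 to 436 FPKM in UIR libraries at days 1, 3 and 21, against 74.6 to 96.6, 45.9 to 71.9 and 50.4 to 61.1 FPKM in sham libraries. Of them 0, 6 and 8 were called higher and 3, 0 and 0 lower. The 10 endothelial markers summed to 144 to 180, 145 to 251 and 473 to 491 FPKM in UIR libraries, against 211 to 226, 101 to 216 and 170 to 266 FPKM in sham libraries, with 1, 3 and 9 called higher and 4, 0 and 0 lower. At day 3 the endothelial sums of UIR and sham libraries overlapped. The median difference of the endothelial markers was then 0.22, beside 0.44 for all genes. No marker of either list was at 0 in a whole group.

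The 6 fibroblast markers summed to 20.4 to 28.8, 89.8 to 334 and 961 to 1100 FPKM in UIR libraries, against 28.5 to 37.1, 18.4 to 37.5 and 25.4 to 37.4 FPKM in sham libraries, and 0, 6 and 6 were called higher. Macrophage markers, 6 in number, summed to 97.3 to 123, 211 to 418 and 1270 to 1800 FPKM in UIR and 69.0 to 111, 36.8 to 47.6 and 38.6 to 46.7 FPKM in sham libraries. Of them 2, 6 and 6 were called higher and 2, 0 and 0 lower. In the opposite direction the 6 proximal tubule markers summed to 7720 to 12000, 692 to 813 and 248 to 1360 FPKM in UIR libraries, against 20000 to 28400, 46600 to 54700 and 37100 to 42800 FPKM in sham libraries, with 3, 6 and 6 called lower. Most of this sum was Kap, with 9050 of 10200 FPKM in the UIR means of day 1 and 45800 of 49400 FPKM in the sham means of day 3. Between UIR days 1 and 3, 4 of the 6 were called lower and 1 higher, against 17.1% and 49.4% of all genes. The means of Lrp2 and Cubn went from 28.6 to 41.2 and from 10.8 to 19 FPKM. At day 1 Cd14 averaged 59.3 FPKM in UIR and 32.1 FPKM in sham libraries, with macrophage sums of 108 and 88.9 FPKM. C1qa and C1qb then had lower means in UIR than in sham libraries, 7.32 against 18.9 and 10.6 against 16.9 FPKM. Pericyte and smooth muscle, fibroblast, macrophage and proximal tubule sums of UIR and sham libraries did not overlap at days 3 and 21. The same held for Notch1, Notch2, Notch3, Jag1, Jag2, Dll4, Hes1 and Heyl, while Dll1 and Hey1 overlapped at day 3. UIR libraries lay above all sham libraries for 59.3% of all genes at day 3 and 62.8% at day 21. The part of these cells, and of endothelial cells, in the values of the 10 genes was not tested. At day 1 all 4 injured tubule markers were called higher, with sums of 2970 to 4310 FPKM in UIR libraries, against 128 to 273 FPKM in sham libraries. Their part in the day-1 differences of the 10 genes was not tested.

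**Figure D5:**
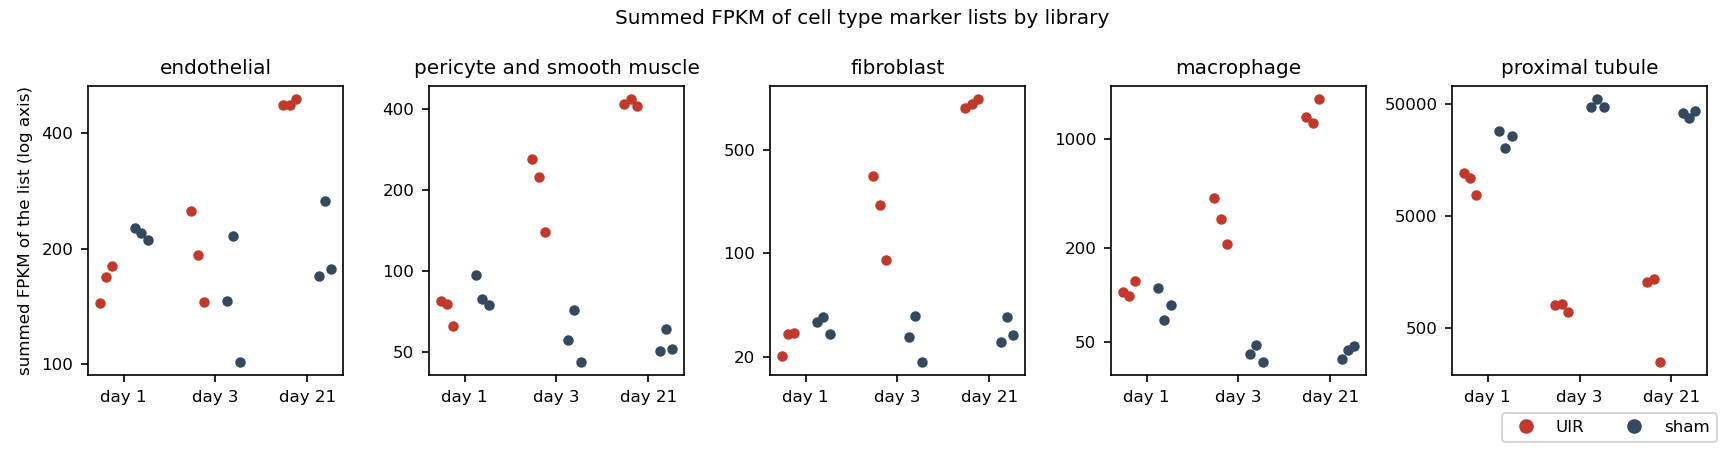
Summed FPKM of 5 marker lists (log vertical axes) in every library at days 1, 3 and 21, with UIR libraries in red to the left of sham libraries in dark blue. Fibroblast markers reach 961 to 1100 FPKM in UIR libraries at day 21 against 25.4 to 37.4 FPKM in sham libraries, and proximal tubule markers lie between 248 and 1360 FPKM in UIR libraries at day 21. Kap makes up most of the proximal tubule sum, with 821 of 964 FPKM in the UIR means of day 21.

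Among the UIR libraries of day 3, replicates 1, 2 and 3 had pericyte and smooth muscle sums of 262, 224 and 140 FPKM and fibroblast sums of 334, 211 and 89.8 FPKM. Notch3 was 7.97, 5.52 and 4.44 FPKM and Heyl 7.41, 6.73 and 5.03 FPKM in the same libraries. Notch2 was 16.65, 16.43 and 16.51 FPKM and did not share this spread. At day 21 the order was another, with pericyte and smooth muscle sums of 420, 436 and 410 FPKM and Notch3 at 9.68, 11.38 and 12.81 FPKM in UIR replicates 1, 2 and 3. These are 3 libraries, and the relation was not tested.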

How the data were processed

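RNA sequencing of kidney was measured in 18 libraries. HISAT2 2.0.4, Bowtie2 2.2.5, RSEM 1.2.12 and build mm9 are named, without roles, per the submitters' processing notes. The table the authors deposited holds FPKM for 20825 genes with their Entrez Gene IDs and symbols, and 27 symbols stored as dates were restored through the IDs. No read counts entered the analysis and the sequencing depth is unknown, so that the number of libraries limits the precision.

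Genes with at least 1 FPKM in at least 3 libraries (14716) were analysed as log2(FPKM + 1). All libraries entered 1 model of group means in limma 3.58.1 (R 4.3.3), with 12 residual degrees of freedom, a variance trend, two-sided tests and Benjamini-Hochberg adjustment. The method was tested on simulated data. With 3 against 3 libraries the smallest p of an exact permutation test is 0.1, so genes were tested only in this model. The labels call the libraries biological replicates without naming the animals, so p-values measure the spread between these samples.

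All 10 Notch genes are described. Of the other pathway genes the text names up to 6 called genes with the largest difference in each direction at each day, and some genes added after their values were seen (Rbpj, Notch4, Hey2, Mfng, Maml2, Adam10, and Nrarp after day 1). For each of the 10 genes the text also names the gene with the most similar pattern, except that of Notch1, which is not reported here. The members and lists were chosen with earlier results of these data known. Promoter sequences are RefSeq's on GRCm38.p6, matched by symbol. Alternatives were pseudocounts of 0.1 and 5, no filter and a filter at 5 FPKM, TPM, median-of-ratios and quantile scaling, a replicate block, fits of the compared groups only, later sham libraries as the day-1 control, and leaving out each library.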

Additional observations from a re-analysis of the deposited data

Results flagged for a closer look

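The difference between UIR and sham differed between days, by limma's test of the change in that difference, for 13 gene and day pairs among the 10 genes. From day 1 to day 3 it grew by 1.11 ± 0.20 for Notch1 (adjusted p = 1.8e-04), 1.41 ± 0.14 for Notch2 (adjusted p = 6.4e-07), 1.52 ± 0.24 for Notch3 (adjusted p = 5.3e-05) and 1.23 ± 0.18 for Heyl (adjusted p = 3.2e-05). Over the same days it grew by 0.92 ± 0.14 for Jag1 (adjusted p = 4.7e-05) and 1.17 ± 0.18 for Jag2 (adjusted p = 3.9e-05), and Jag2 was lower in UIR than in sham libraries at day 1 and higher at day 3.

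From day 3 to day 21 it grew by 0.80 ± 0.20 for Notch1 (adjusted p = 0.0039), 0.84 ± 0.24 for Notch3 (adjusted p = 0.0092), 0.70 ± 0.18 for Jag2 (adjusted p = 0.0045), 0.36 ± 0.14 for Jag1 (adjusted p = 0.048), 0.92 ± 0.19 for Hes1 (adjusted p = 0.0011), 0.95 ± 0.30 for Hey1 (adjusted p = 0.016) and 0.83 ± 0.18 for Heyl (adjusted p = 0.0017). These 3 target genes are all those among the 10. The first step holds the change of both groups: the 1.11 of Notch1 is made of a UIR difference between days 3 and 1 of 0.44 and a sham difference of -0.67.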

How the results depend on the processing

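Over all alternatives, 1379 of 1453 values of the 10 genes stayed on the same side of the threshold (35 of them, without a call, with the other sign), 45 lost a call, 22 gained one and 7 with a call turned their sign. The 7 came from rescaling. Under median-of-ratios scaling the day-3 differences of Dll4 and Hes1 were -0.04 and -0.05, and the change of the Hes1 difference from day 1 to day 3 was -0.49. Under quantile normalization Dll1 was -0.58 at day 3 and -0.56 at day 21, and Dll4 was -0.30 and -0.04. The cause was not tested. Of the 10 genes, quantile normalization called 5 higher and 1 lower at day 3 (34.7% and 33% of all genes). It called 1 lower at day 21 (38.1% of all genes) and 3 lower between sham days 3 and 1. Median-of-ratios and quantile scaling each called 2 lower in the change from day 1 to day 3, 3 lower between UIR days 3 and 1 and 1 higher (Jag1) between sham days 3 and 1. In that change, 48.2% and 50.1% of the calls over all genes were higher under these 2 scalings, and 79.7% as deposited. Between the UIR days it was 47.8% and 50.6%, and 74.3% as deposited. Between the sham days it was 51.5% and 51.9%, and 30.1% as deposited. The later sham controls left 0 of the 10 genes lower at day 1. The filter at 5 FPKM also gave 0, because Jag2 did not pass it and was not tested. Genes called between sham days 21 and 3 numbered 12 and 2 with pseudocounts of 0.1 and 5, 8 under median-of-ratios scaling and 11 under quantile normalization, in place of 5. Leaving out 1 library gave 0 to 419 such genes and 0 to 1 of the 10 lower there, 1 to 2 of the 10 lower at day 1, 0 to 1 lower in the change from day 1 to day 3, and 1 to 2 lower between UIR days 3 and 1.

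Libraries with the same replicate number in UIR and sham groups deviated together little, with correlations from -0.07 to 0.11, so the numbers were not taken as pairs. With a replicate block 8705, 11058 and 11837 genes were called at days 1, 3 and 21, and Dll1 at day 21 was called (0.35, adjusted p = 0.044), the 1 call among the 10 genes that changed. In fits of the compared groups only, Notch2 and Dll4 lost their day-1 calls (adjusted p = 0.065 and 0.070).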

Other observations

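One library in some groups held most of the highest values of the 10 genes. In the UIR libraries of day 3 replicate 1 had the highest value for 9 of the 10 genes and replicate 3 the lowest for 7. Their endothelial marker sums were 251 and 145 FPKM. Pericyte and smooth muscle (262 and 140 FPKM), fibroblast (334 and 89.8 FPKM) and macrophage sums (418 and 211 FPKM) had the same order. Podocyte (119 and 133 FPKM) and injured tubule sums (1480 and 1880 FPKM) had the opposite order. In the sham libraries of day 3 replicate 2 had the highest value for 8 of the 10 genes and replicate 3 the lowest for 9, and in the sham libraries of day 21 replicate 2 had the highest for 9. These replicate 2 libraries had the highest endothelial marker sums of their groups, 216 and 266 FPKM. They also had the highest sums of pericyte and smooth muscle (71.9 and 61.1 FPKM) and fibroblast markers (37.5 and 37.4 FPKM). The same held for podocyte (109 and 115 FPKM) and erythroid markers (1070 and 694 FPKM). T cell marker sums were the lowest there (2.96 and 2.42 FPKM), and proximal tubule sums were the highest at day 3 and the lowest at day 21 (54700 and 37100 FPKM). These are values of single libraries, and no test was made.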
